A study of Mus musculus with 10 samples.

Results

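The solute carrier genes for amino acids, sugars and lactate were examined in mouse T cells before and after long culture with B lymphoma cells. All genes whose symbol begins with Slc1a, Slc2a, Slc3a, Slc6a, Slc7a, Slc16a, Slc36a, Slc38a or Slc43a were taken, which gave 88 of the 18193 genes on the array. Each gene was read by 1 probe set, the one with the highest mean over the 10 arrays. A gene whose mean stayed under 6 on the log2 scale in all 5 groups was treated as not expressed, which left 36 expressed members, or 40.9%, against 55.6% of all genes. The prefix rule also took in 4 genes that are not transporters by their names, the pseudogene Slc2a4rg-ps, the noncoding genes Slc36a1os and Slc6a19os, and Slc7a6os, of which Slc2a4rg-ps and Slc7a6os were expressed.

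The arrays held 5 groups of 2: CD4+ TEM, CD8+ TEM and CD4+ memory cells, each collected on day 25 of culture, and freshly sorted naive CD4+ and naive CD8+ T cells. TEM stands for effector memory, and the titles of the memory arrays carry the letters CM. In the study, effector memory cells are CD62L- CD44+ and central memory cells CD62L+ CD44+. By the study's methods, naive cells were sorted as TCRβ+ CD62L+ CD44- from spleens of wild-type C57BL/6 mice, and the day 25 cells came from such naive cells that were given IL-2 and stimulated each week by γ-irradiated lymphoma cells. The stimulators were established lines of LMP1/2A+ B lymphoma, which express the Epstein-Barr virus proteins LMP1 and LMP2A through Cγ1-Cre in germinal center B cells, so the cultured groups had met lymphoma cells and IL-2 and the naive groups neither. The sample records also carry a Foxo1 status, which is not part of the described T cell experiment and differs within the CD8+ TEM and the CD4+ memory pair. CD4+ TEM and naive CD4+ arrays differ in that entry throughout, so its effect and that of culture cannot be told apart there if it applies. Nothing says that the 2 arrays of a group came from separate mice or cultures, so each p-value rests on a spread that may be technical.

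Activated T cells take up glucose mainly through the facilitative SLC2A (GLUT) carriers, convert much of it to lactate, and release the lactate through the proton-coupled SLC16A (MCT) carriers. Large neutral amino acids enter through the heterodimer of SLC7A5 (LAT1) and the glycoprotein SLC3A2 (CD98), glutamine through SLC1A5 (ASCT2) and the SLC38A (SNAT) carriers, and arginine through the cationic carriers of the SLC7A family. Members of SLC36A and SLC38A also sit on lysosomes, where amino acids are signalled to mTORC1.

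Promoter sequences are shown for 3 members that were higher in both TEM groups and carry the letters ACGTG, the core of the hypoxia response element, or CACGTG, the E-box read by MYC and related factors. They are RefSeq sequences of assembly GRCm38.p6, 300 bases each, with the motif letters in capitals. Those of Slc2a1 and Slc16a1 span the annotated gene start. That of Slc16a3 lies downstream of the annotated gene start at 120948484.
Slc16a3, chr11:120948817-120949116, plus strand: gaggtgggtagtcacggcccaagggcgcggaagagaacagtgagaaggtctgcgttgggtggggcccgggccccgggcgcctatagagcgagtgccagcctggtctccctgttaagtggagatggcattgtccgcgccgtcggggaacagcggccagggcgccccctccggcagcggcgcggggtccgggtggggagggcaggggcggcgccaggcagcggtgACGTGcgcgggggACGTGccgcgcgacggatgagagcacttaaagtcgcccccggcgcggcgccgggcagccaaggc
Slc2a1, chr4:119108495-119108794, plus strand: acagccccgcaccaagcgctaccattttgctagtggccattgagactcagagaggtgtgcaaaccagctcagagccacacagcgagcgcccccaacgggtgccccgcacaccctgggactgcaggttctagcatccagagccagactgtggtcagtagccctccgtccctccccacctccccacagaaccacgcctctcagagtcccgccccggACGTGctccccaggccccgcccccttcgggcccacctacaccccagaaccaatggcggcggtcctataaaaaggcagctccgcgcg
Slc16a1, chr3:104638414-104638713, plus strand: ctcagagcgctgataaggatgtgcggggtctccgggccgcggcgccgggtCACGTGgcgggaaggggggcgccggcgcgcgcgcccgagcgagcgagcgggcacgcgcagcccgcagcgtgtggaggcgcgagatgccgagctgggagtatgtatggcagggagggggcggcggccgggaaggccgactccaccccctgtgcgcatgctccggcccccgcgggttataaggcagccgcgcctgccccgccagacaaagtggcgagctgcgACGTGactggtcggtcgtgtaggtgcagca
Both strands were searched, and a CACGTG holds ACGTG on either strand. A promoter entry was at hand for 24 of the 36 expressed members. ACGTG stood in 8 of them (33.3%), against 21.8% of the 27025 promoters of the whole table, and CACGTG in 3 (12.5%), against 8.09%. The third motif searched, TGATGNAAN, the composite C/EBP-ATF element, stood in 1 (4.17%), against 4.5%. Of the 13 members called higher in both TEM groups 9 had an entry, with ACGTG in 5 (55.6%), CACGTG in 1 (11.1%) and TGATGNAAN in 1 (11.1%). Among the expressed ones of these, ACGTG stood only in the printed Slc16a3, Slc2a1 and Slc16a1, and TGATGNAAN in none. The other matches lay in Slc7a7 and Slc6a13, which were taken as not expressed. Genes with several entries were counted once, while the whole table was counted by entry, and a match is a description of letters only.

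The labels were borne out by Cd4 and Cd8b1, although Cd8a read 7.67 and 8.17 in CD4+ TEM cells and Cd4 read 6.51 and 6.89 in CD8+ TEM cells. The summed level of B cell markers was higher in cultured cells of both subsets, but not each marker. The log2 of the summed linear levels of 7 of 8 listed B cell markers lay between 10.78 and 11.07 in CD4+ TEM cells, 11.21 and 11.39 in CD8+ TEM cells, 10.85 and 11.39 in CD4+ memory cells, 6.57 and 6.76 in naive CD4+ cells, and 8.36 and 9.62 in naive CD8+ cells. Most of this came from Ebf1 and Cd79b, while the B lineage factor Pax5 lay between 3.58 and 4.33 on all arrays. In CD8+ cells Ebf1, Cd79b and Blnk were higher in TEM than in naive cells. Cd79a there read 4.45 and 5.61 in TEM against 5.22 and 6.20 in naive cells. Ms4a1 read 3.2 and 3.8 against 3.1 and 7.0, and Cd22 4.9 and 5.4 against 4.1 and 6.3. The same sum over 6 myeloid markers lay between 8.11 and 8.36 in CD4+ TEM cells, 8.44 and 8.47 in CD8+ TEM cells, 7.69 and 8.55 in CD4+ memory cells, 6.61 and 7.1 in naive CD4+ cells, and 7.81 and 9.13 in naive CD8+ cells, with Itgam under 4 on every array. Here too not each marker moved. Cd68 read 7.4 and 7.6 in CD4+ TEM against 4.8 and 4.7 in naive CD4+ cells, and Adgre1 5.6 and 6.3 against 2.9 and 2.4. Lyz2 was lower in TEM, at 4.5 and 4.5 against 4.8 and 6.1, and Csf1r and Cd14 overlapped. The Gapdh control probe sets, whose 3' minus 5' signal grows with RNA degradation, differed by 0.91 to 1.31 on TEM arrays, 1.13 and 1.72 on memory arrays, and 2.42 to 2.75 on naive arrays. The actin control probe sets differed by 1.48 and 1.49 on CD4+ TEM, 0.77 and 0.84 on CD8+ TEM, 2.1 and 1.59 on memory, 1.46 and 1.24 on naive CD4+ and 2.13 and 1.73 on naive CD8+ arrays. The B cell sum and the Gapdh difference thus move with culture in both subsets, the myeloid sum in CD4+ cells, and the actin difference runs the way of Gapdh in CD8+ but not in CD4+ cells. Their part in the results below was not tested. In bulk RNA, fewer cells of a type and less RNA per cell cannot be told apart.

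The main contrast asked which transporters changed as naive cells became TEM cells, in each subset by itself. In CD4+ TEM against naive CD4+ cells, 17 of 88 members were called higher (19.3%, against 16.4% of all genes) and 2 lower (2.27%, against 10.1%) at an adjusted p under 0.05 in limma. In CD8+ TEM against naive CD8+ cells, 17 were called higher (19.3%, against 20.9%) and 12 lower (13.6%, against 17.2%). The share of rising members was near that of all genes in both subsets, so the counts by themselves mark nothing about transporters. Median log2 changes were 0.08 over the members and 0.02 over all genes in CD4+ cells, and 0.09 and 0.06 in CD8+ cells. The 2 contrasts share no array, but they share the fit's estimate of spread for each gene, so their calls are not independent. There were 13 members called higher in both (14.8%, against 12.2% of all genes), 2 lower in both (2.27%, against 6.86%), and 1 higher in CD4+ and lower in CD8+ cells (1.14%, against 0.693%). A further 3 were called higher in CD4+ cells alone, 4 higher and 9 lower in CD8+ cells alone, and 56 in neither. Arrays did not overlap between the groups in 52 members in CD4+ cells (59.1%, against 63.2% of all genes) and 53 in CD8+ cells (60.2%, against 69.7%), among them all 19 and all 29 called members, so this marks nothing about them beyond the call. Leaving out naive CD4+ replicate 2 took the CD4+ rises to 11, leaving out CD8+ TEM replicate 2 took the CD8+ falls to 6, and 1 of the 2 CD4+ falls was lost without CD4+ TEM replicate 2, naive CD4+ replicate 2 or either CD8+ TEM array. Of the called members, 3 in CD4+ and 4 in CD8+ cells belonged to the 52 genes taken as not expressed. These were Slc7a7, which forms the y+LAT1 carrier and rose by 1.79 and 1.04 on the log2 scale but averaged only 5.32 in CD4+ TEM cells, Slc6a13 in both subsets, the insulin-responsive glucose carrier gene Slc2a4 at 0.98 in CD4+ cells, and the glucose carrier gene Slc2a2 at 1.38 and Slc6a19os at -0.61 in CD8+ cells. Of the 36 expressed members, 7 were called in none of the 5 comparisons: Slc1a5, Slc3a1, Slc3a2, Slc7a1, Slc16a6, Slc36a4 and Slc38a7. Under a scaling that sets the median of the gene table equal on all arrays, the median of all genes moved to -0.57 for CD4+ and -0.47 for CD8+ cells. The calls then were 9 higher (10.2%, against 10.1% of all genes) and 40 lower (45.5%, against 54.3%) in CD4+ cells, and 11 higher (12.5%, against 13.3%) and 42 lower (47.7%, against 45.8%) in CD8+ cells, near the shares of all genes or below them. Among expressed members this scaling took the call from the rises of Slc16a1, Slc16a4, Slc16a13, Slc38a10, Slc7a3 and Slc7a5 in CD4+ cells. In CD8+ cells it did so for Slc2a1, Slc2a8, Slc16a13 and Slc7a4, which also lost it under quantile normalization. The changes below are relative to the deposited scaling, and none of the members called with it changed sign under the gene-table scaling or the other scalings tried. Where a group lay under 6, the change is a difference of measured log2 values that depends on a dim signal, so its exact size and a subset difference that rests on it are uncertain.

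**Figure D1:**
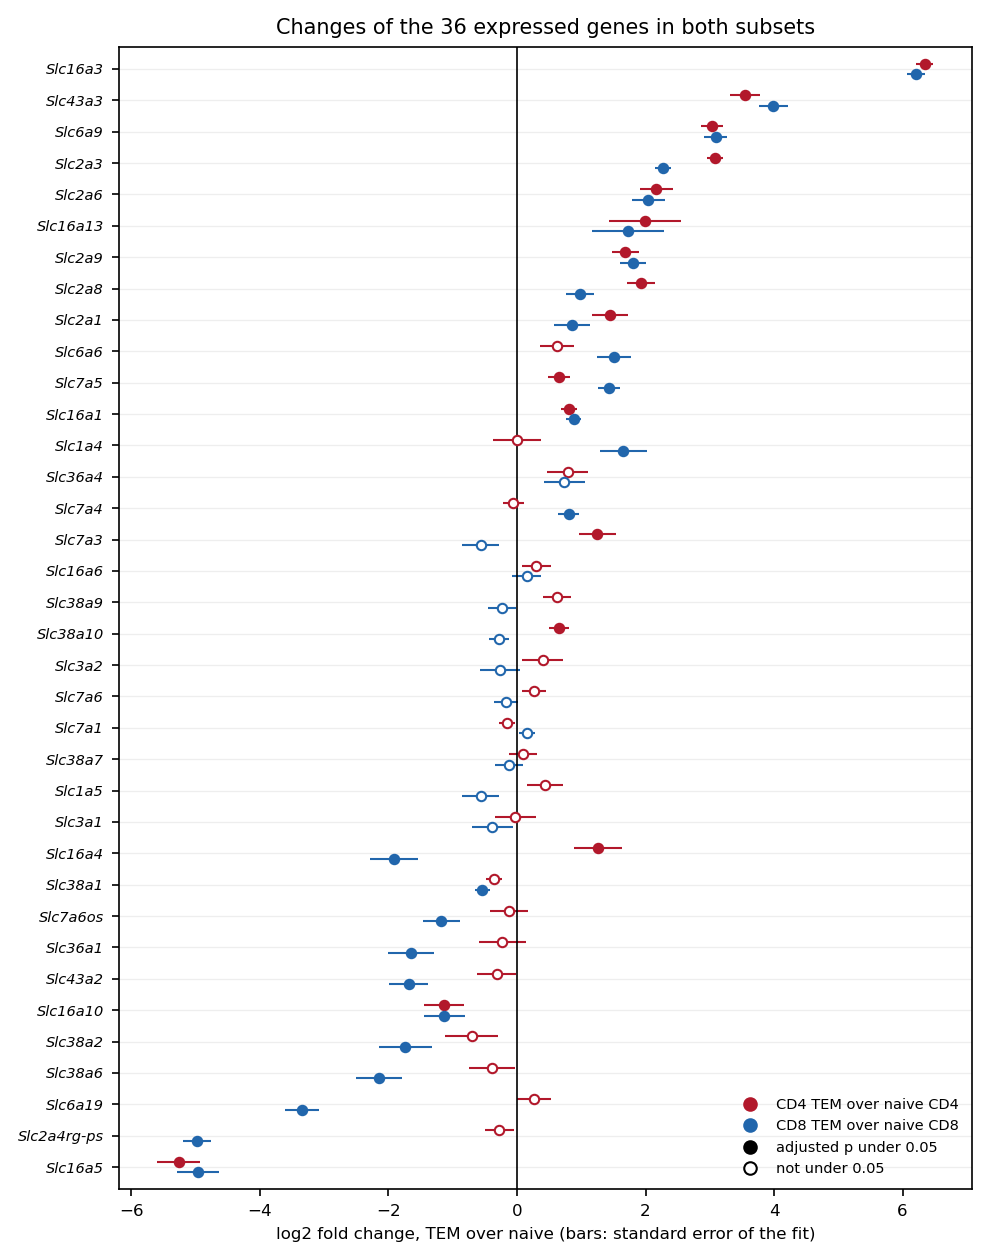
Log2 fold changes of the 36 expressed members in CD4+ TEM over naive CD4+ cells (red) and CD8+ TEM over naive CD8+ cells (blue), with bars for the standard error of the fit and filled points for an adjusted p under 0.05. Slc16a3 lies at 6.34 and 6.21 at one end, Slc16a5 at -5.27 and -4.96 at the other, and Slc2a4rg-ps and Slc6a19 at -4.98 and -3.35 in CD8+ cells, with open points near 0 in CD4+ cells.

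Most expressed Slc2a members were called higher in both subsets. Of the 6, 5 were called higher in CD4+ and the same 5 in CD8+ TEM cells, and the remaining one was the pseudogene Slc2a4rg-ps. Of all 12 Slc2a members, expressed or not, 6 were called higher in each subset and 1 lower in CD8+ cells. All genes, which also include dim ones, gave 16.4% higher in CD4+ cells, and 20.9% higher and 17.2% lower in CD8+ cells. Among the 5 are the urate carrier gene Slc2a9, whose probe sets disagree, and Slc2a1, whose CD8+ call was lost in most omissions, as given below. Slc2a3 encodes GLUT3, a high-affinity glucose carrier. It read 13.31 and 13.33 in CD4+ TEM cells against 10.19 and 10.28 in naive CD4+ cells, a log2 fold change of 3.08 ± 0.12 (SE) with an adjusted p of 1.62e-06. In CD8+ cells it read 13.24 and 13.18 in TEM against 11.01 and 10.87 in naive cells, a change of 2.27 ± 0.12 (adjusted p = 5.7e-06). TEM cells of the subsets thus reached like levels on this probe set, while the naive CD8+ arrays stood above the naive CD4+ arrays. The changes differed by 0.82 ± 0.18 (adjusted p = 0.0219), a difference that lost its call in 6 of 10 omissions of 1 array, at 0.78 to 0.86, without either CD4+ TEM, CD8+ TEM or naive CD4+ array. It was 0.645 with the mean of all probe sets (adjusted p = 0.217), and 0.50 (adjusted p = 0.668) without the probe sets named _x_at or _s_at, of which the one used here is one.

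Slc2a1 encodes GLUT1, the carrier most tied to T cell activation. It read 12.95 and 12.98 in CD4+ TEM cells against 11.52 and 11.51 in naive CD4+ cells, so it was already bright before culture on this probe set. The log2 fold change was 1.45 ± 0.28 (adjusted p = 0.00605), and the gene's other probe sets gave 2.14 and 2.59. In CD8+ cells it read 12.72 and 12.78 in TEM against 12.41 and 11.39 in naive cells. These naive arrays lay more than 1 log2 unit apart, and the change of 0.85 ± 0.28 (adjusted p = 0.0437) was 0.34 without naive CD8+ replicate 2, with an adjusted p of 0.101. The call was lost in 9 of 10 omissions, all but that of naive CD8+ replicate 1, where the change was 1.36. The gene's other probe sets gave 1.09 and 1.67 in CD8+ cells.

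Slc2a6, whose product GLUT6 sits on internal membranes, read 8.34 and 8.12 in CD4+ TEM cells against 6.32 and 5.80 in naive CD4+ cells, and 7.85 and 8.13 in CD8+ TEM against 5.83 and 6.07 in naive CD8+ cells. Its changes were 2.17 ± 0.26 and 2.04 ± 0.26, a 4.5-fold and a 4.11-fold rise. Slc2a8, for the internal hexose carrier GLUT8, rose by 1.93 ± 0.21 in CD4+ and 0.98 ± 0.21 in CD8+ TEM cells (adjusted p = 0.000333 and 0.00697), and the difference of 0.94 was not called (adjusted p = 0.0852). Without CD8+ TEM replicate 1 the CD8+ change of Slc2a8 was 0.90 with an adjusted p of 0.0514. Slc2a9, a urate carrier of the same family, rose by 1.69 ± 0.21 and 1.80 ± 0.21 on its brightest probe set. A dimmer probe set of Slc2a9 gave -1.44 in CD4+ and -1.46 in CD8+ cells, so the 2 readings of this gene disagree in direction and the mean of both gave 0.13 and 0.17, neither called.

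**Figure D2:**
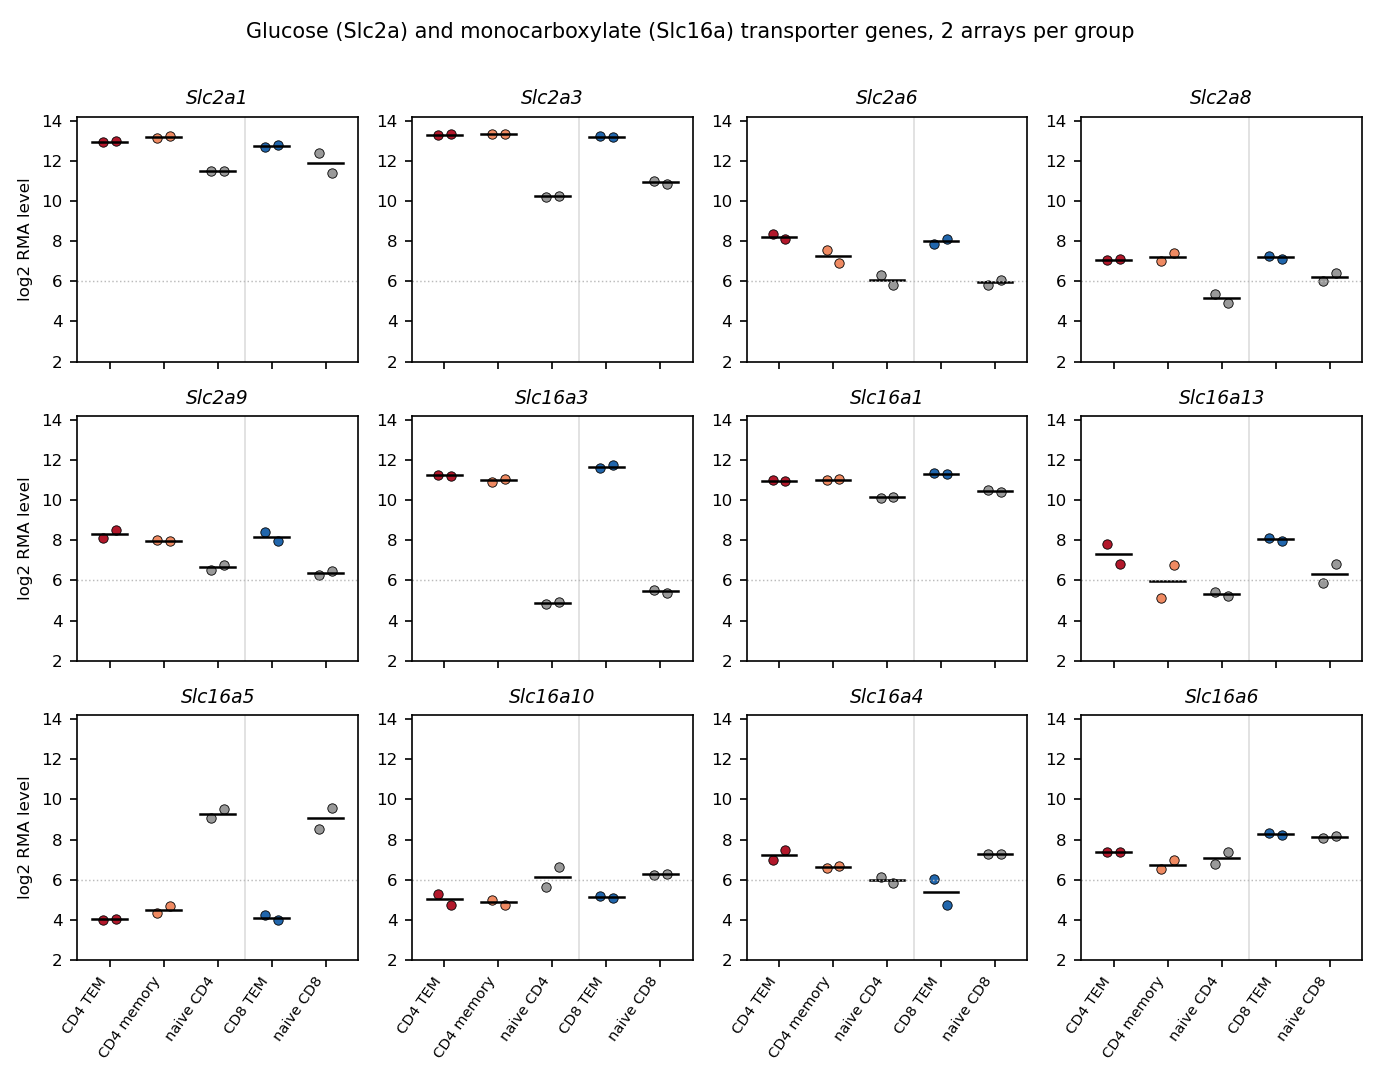
Log2 RMA level of 12 glucose and monocarboxylate transporter genes on each of the 10 arrays (points) with the group mean (bar), the dotted line at 6 marking the expression limit. Slc16a3 stands at 10.94 to 11.76 on all cultured arrays and 4.85 to 5.55 on all naive arrays, and Slc16a5 shows the opposite order.

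The Slc16a genes held the largest rise of all 88 members in both subsets and the largest fall in CD4+ cells. Slc16a3 encodes MCT4, the lactate exporter of strongly glycolytic cells, and its promoter is printed above. It read 11.26 and 11.22 in CD4+ TEM cells against 4.85 and 4.95 in naive CD4+ cells, and 11.60 and 11.76 in CD8+ TEM against 5.55 and 5.39 in naive CD8+ cells. On naive arrays the probe set stood below the expression limit, and on TEM arrays it stood among bright signals. The log2 fold changes were 6.34 ± 0.13 and 6.21 ± 0.13, with adjusted p-values of 1.57e-07 and 1.5e-07, and both held without any 1 array, between 6.13 and 6.39.

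Slc16a1 encodes MCT1, which carries lactate and pyruvate in either direction. It read 10.99 and 10.94 in CD4+ TEM cells against 10.11 and 10.18 in naive CD4+ cells, and 11.37 and 11.29 in CD8+ TEM against 10.52 and 10.39 in naive CD8+ cells. The rise was 0.81 ± 0.12 and 0.88 ± 0.12 (adjusted p = 0.00184 and 0.000717), so both naive groups already gave a bright signal and the change was under 2-fold. A second, dim probe set gave -0.96 and -0.58, and the mean of both gave -0.08 in CD4+ and 0.15 in CD8+ cells. With the median of the gene table made equal, the CD4+ change was 0.22 and was not called (adjusted p = 0.169).

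Slc16a5, an MCT family gene, read 3.99 and 4.06 in CD4+ TEM cells against 9.07 and 9.51 in naive CD4+ cells, and 4.25 and 3.96 in CD8+ TEM against 8.55 and 9.59 in naive CD8+ cells. All TEM arrays lay under the expression limit and all naive arrays well above it. The changes were -5.27 ± 0.33 and -4.96 ± 0.33 (adjusted p = 1.45e-05 and 1.32e-05). Slc16a10, which encodes the aromatic amino acid carrier TAT1, fell by 1.13 ± 0.31 in each subset, close to the limit. Its other probe sets gave -2.71, -0.32 and -0.03 in CD4+ and -1.7, -0.86 and 0.11 in CD8+ cells. Its call was lost in 4 of 10 omissions in CD4+ cells (CD4+ TEM replicate 2, either CD8+ TEM array and naive CD4+ replicate 2, at -1.13 to -0.64) and in 4 in CD8+ cells (either CD8+ TEM or naive CD8+ array, at -1.16 to -1.10). Slc16a13, another MCT family gene, read 7.81 and 6.82 in CD4+ TEM against 5.44 and 5.21 in naive CD4+ cells, and 8.12 and 7.99 in CD8+ TEM against 5.86 and 6.80 in naive CD8+ cells. Its rises of 1.99 ± 0.55 and 1.73 ± 0.55 were each lost in 5 of 10 omissions, with changes of 1.5 to 2.11 in CD4+ cells (without CD4+ TEM replicate 1, or either CD8+ TEM or naive CD4+ array) and 1.26 to 1.79 in CD8+ cells (without either CD8+ TEM or naive CD4+ array, or naive CD8+ replicate 1). Slc16a6 was not called in any comparison.

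Genes that act with these carriers were followed as a list of 16 partners and regulators. In CD4+ TEM cells 5 were called higher and 3 lower, with a median change of 0.23. All genes gave 16.4% higher and 10.1% lower there, with a median of 0.02. In CD8+ TEM cells 5 were called higher and 6 lower, with a median of 0.05. All genes gave 20.9% higher and 17.2% lower there, with a median of 0.06. Bsg encodes basigin, the chaperone that takes MCT1 and MCT4 to the cell surface. It read 10.83 and 10.55 in CD4+ TEM against 7.84 and 7.89 in naive CD4+ cells, and 11.65 and 11.66 in CD8+ TEM against 8.07 and 8.51 in naive CD8+ cells. The rises were 2.82 ± 0.18 and 3.37 ± 0.18. The arrestin gene Arrdc4, whose product lowers glucose uptake, read 9.10 and 8.99 in CD4+ TEM against 3.46 and 3.57 in naive CD4+ cells, and 8.87 and 8.81 in CD8+ TEM against 6.37 and 7.55 in naive CD8+ cells. It was called higher in both, by 5.53 ± 0.34 and 1.87 ± 0.34, with like levels in TEM cells and a naive CD4+ signal under the expression limit. Its relative Txnip, a brake on GLUT1, was bright on every array and fell by 0.48 ± 0.13 and 0.69 ± 0.13. Nedd4, a ubiquitin ligase, rose by 4.05 ± 0.19 and 1.25 ± 0.19, with naive CD4+ arrays at 4.87 and 4.47. Myc rose by 0.96 ± 0.12 and 0.58 ± 0.12, and Mxi1 by more, 1.73 ± 0.13 and 1.81 ± 0.13. Nfe2l2 fell by 1.32 ± 0.28 and 1.59 ± 0.28. Max fell by 0.80 ± 0.21 in CD4+ cells and was not called in CD8+ cells (-0.60 ± 0.21). Called lower in CD8+ cells alone were Mlxip, Atf4, Nedd4l and Mxd4.

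Of 12 measured genes for lactate and pyruvate use, 5 were called higher and 3 lower in CD4+ TEM cells, and 6 higher and 1 lower in CD8+ TEM cells. The shares over all genes were 16.4% and 10.1% in CD4+ cells, and 20.9% and 17.2% in CD8+ cells. Medians were 0.69 and 0.68 over the list, against 0.02 and 0.06 over all genes. Hk2, which traps glucose by phosphorylation, read 11.96 and 11.93 in CD4+ TEM against 5.36 and 4.71 in naive CD4+ cells, and 12.06 and 12.01 in CD8+ TEM against 7.36 and 6.70 in naive CD8+ cells. Its rises were 6.91 ± 0.26 and 5.0 ± 0.26, with like levels in TEM cells and a naive CD4+ signal under the expression limit. Ldha, which makes lactate from pyruvate, rose by 1.22 ± 0.17 and 1.79 ± 0.17, and the glycolytic enzyme gene Pkm by 1.46 ± 0.12 and 2.11 ± 0.12. The pyruvate dehydrogenase kinase gene Pdk3 rose by 2.07 ± 0.17 and 2.69 ± 0.17. The 3 called lower in CD4+ cells were Ldhb, the other lactate dehydrogenase subunit, at -0.79 ± 0.17, the pyruvate dehydrogenase subunit gene Pdha1 at -0.54 ± 0.14 and the kinase gene Pdk1 at -0.46 ± 0.13, and in CD8+ cells, where none of these was called, it was Pdk2 at -1.09 ± 0.29.

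Of the 6 expressed Slc7a members, 2 were called higher in CD4+ TEM cells, and 2 higher and 1 lower in CD8+ TEM cells. Of the 6 expressed Slc38a members, 1 was called higher in CD4+ and 3 lower in CD8+ TEM cells. Of all 16 Slc7a members, expressed or not, 3 were called higher in CD4+ cells, and 3 higher and 1 lower in CD8+ cells. The 9 Slc38a members gave the same calls as the expressed ones. The shares over all genes, which also include dim ones, were 16.4% higher and 10.1% lower in CD4+ cells, and 20.9% and 17.2% in CD8+ cells. Slc7a5, the light chain of LAT1, read 10.60 and 10.59 in CD4+ TEM cells against 10.17 and 9.71 in naive CD4+ cells. In CD8+ cells it read 10.91 and 10.83 in TEM against 9.53 and 9.33 in naive cells. The change was larger in CD8+ cells by value, at 1.44 ± 0.17 (adjusted p = 0.000284) against 0.65 ± 0.17 in CD4+ cells (adjusted p = 0.0238), and the difference of 0.78 ± 0.24 was not called (adjusted p = 0.0764). The CD4+ call was lost without CD4+ TEM replicate 1 or 2 (0.65 and 0.66) and without naive CD4+ replicate 2 (0.43), and the gene-table scaling took it to 0.06. The heavy chain gene Slc3a2, needed for LAT1 to reach the surface, was bright on all arrays and was not called. It read 10.93 and 10.81 in CD4+ TEM against 10.57 and 10.39 in naive CD4+ cells, and 10.82 and 10.85 in CD8+ TEM against 11.67 and 10.54 in naive CD8+ cells.

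The glutamine carriers Slc1a5, Slc38a1, Slc38a2 and Slc38a7 all lay below 0 in CD8+ cells, with Slc38a1 and Slc38a2 called, and on both sides of 0 in CD4+ cells, with none called. Slc1a5 (ASCT2) read 8.46 and 7.82 in CD4+ TEM against 7.77 and 7.63 in naive CD4+ cells, and 8.98 and 9.01 in CD8+ TEM against 9.65 and 9.47 in naive CD8+ cells, with changes of 0.44 ± 0.28 and -0.57 ± 0.28 that were not called (adjusted p = 0.326 and 0.164). Slc38a2, for the stress-regulated carrier SNAT2, read 9.69 and 9.53 in CD8+ TEM cells against 12.12 and 10.57 in naive CD8+ cells, a change of -1.74 ± 0.41 (adjusted p = 0.0106). The naive arrays differed by more than 1 log2 unit, as they did for Slc2a1 and Slc3a2, each time with replicate 1 higher. Without naive CD8+ replicate 1 the Slc38a2 change was -0.96, still called, and without CD8+ TEM replicate 2 it was -1.66 with an adjusted p of 0.061. Its CD4+ change of -0.71 ± 0.41 was not called on this probe set, while the gene's other probe sets gave -2.77 and -2.29 in CD4+ cells and -1.68 and -1.32 in CD8+ cells. Slc38a1, for SNAT1, fell by 0.54 ± 0.12 in CD8+ cells (adjusted p = 0.00837), where another probe set gave -0.05. Without CD8+ TEM replicate 2 that change was -0.50 with an adjusted p of 0.0621. Slc38a7, a lysosomal glutamine carrier, was at 0.10 ± 0.22 and -0.13 ± 0.22 and was not called in any comparison.

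**Figure D3:**
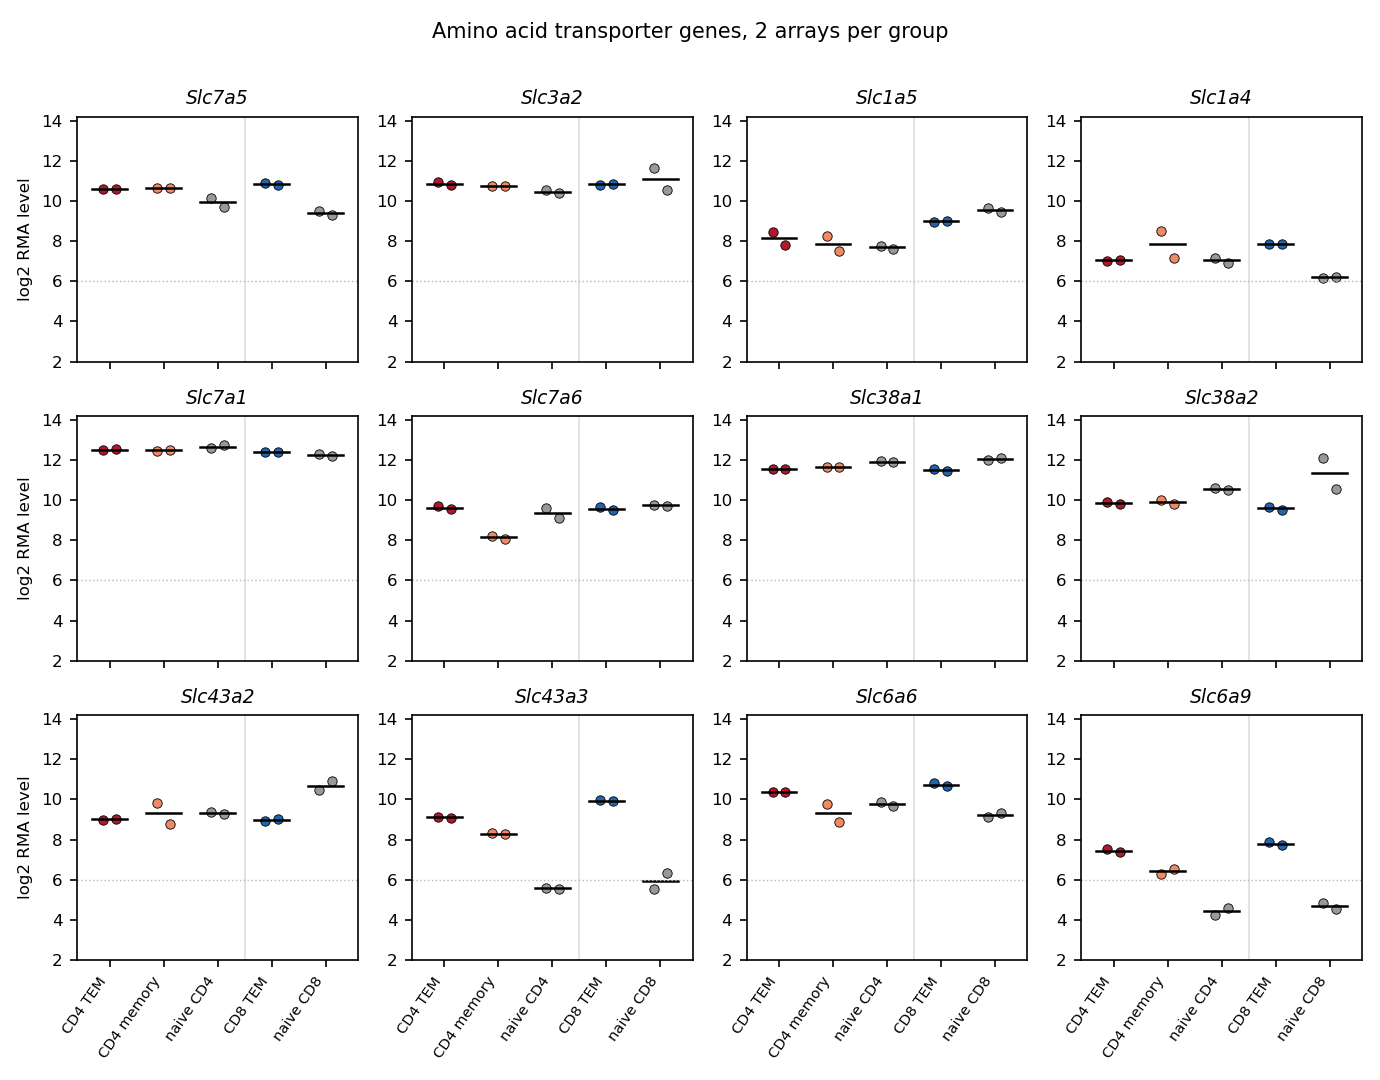
Log2 RMA level of 12 amino acid transporter genes on each array (points) with the group mean (bar) and the expression limit of 6 (dotted line). Slc43a3 and Slc6a9 lie higher on all TEM arrays than on naive arrays, while Slc7a1 lies between 12.20 and 12.74 on all arrays.

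The largest rises among the remaining carriers belonged to a nucleobase and a glycine carrier. Slc43a3, whose product is known to carry purine nucleobases despite its place in an amino acid carrier family, read 9.15 and 9.07 in CD4+ TEM cells against 5.58 and 5.53 in naive CD4+ cells, and 9.97 and 9.91 in CD8+ TEM against 5.56 and 6.35 in naive CD8+ cells. The changes were 3.55 ± 0.23 and 3.99 ± 0.23 (adjusted p = 1.86e-05 and 7.11e-06). Slc6a9, for the glycine carrier GLYT1, read 7.5 and 7.40 in CD4+ TEM cells against 4.25 and 4.58 in naive CD4+ cells, and 7.87 and 7.71 in CD8+ TEM against 4.84 and 4.56 in naive CD8+ cells. It rose by 3.03 ± 0.18 and 3.09 ± 0.18 (adjusted p = 1.04e-05 and 6.7e-06), while its dimmer probe set changed by -0.06 and 0.12. For both genes the naive arrays lay mostly under the expression limit and every TEM array lay above it, and the calls held without any 1 array.

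The genes for cationic amino acid carriers differed among themselves. Slc7a1, for the arginine carrier CAT1, was bright on every array and nearly flat, at 12.50 and 12.53 in CD4+ TEM against 12.62 and 12.74 in naive CD4+ cells, and 12.42 and 12.39 in CD8+ TEM against 12.28 and 12.20 in naive CD8+ cells. Neither change was called (-0.16 ± 0.12 and 0.16 ± 0.12). Slc7a6, for the y+LAT2 exchanger that pairs with Slc3a2, was not called in either TEM comparison. The dim Slc7a7, given above, was called higher in both subsets, and Slc7a4 in CD8+ cells. Slc7a3, for CAT3, rose by 1.25 ± 0.29 in CD4+ cells but stayed under 6 in all CD4+ arrays, and its call was lost without CD4+ TEM replicate 1 (1.05) or naive CD4+ replicate 1 (1.13). It counts as expressed through a mean of 6.08 in naive CD8+ cells, just inside the limit, next to Slc16a10 at 6.26 in the same group. Just outside lay Slc6a13, a GABA and taurine carrier, at 5.72 in CD8+ TEM cells, and Slc16a8 at 5.53 in naive CD4+ cells. Slc7a8, Slc7a11, Slc43a1 and Slc16a7, which were on the T cell core list chosen for this report, stayed under 4 on every array and were not expressed here.

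Among 20 measured genes that use glutamine, branched-chain amino acids or arginine, 8 were called higher and 1 lower in CD4+ TEM cells. In CD8+ TEM cells 12 were called higher and 3 lower. The shares over all genes were 16.4% and 10.1% in CD4+ cells, and 20.9% and 17.2% in CD8+ cells. Medians were 0.47 and 1.15 over the list, against 0.02 and 0.06 over all genes. Asns, the asparagine synthetase, read 11.74 and 11.69 in CD4+ TEM against 3.27 and 6.29 in naive CD4+ cells, and 12.08 and 11.92 in CD8+ TEM against 3.35 and 2.87 in naive CD8+ cells. Its rises were 6.93 ± 0.80 and 8.89 ± 0.80. Bcat1, the cytosolic branched-chain aminotransferase, rose by 5.54 ± 0.23 and 6.80 ± 0.23, with all naive arrays under the expression limit. The serine synthesis gene Psat1 rose by 1.5 ± 0.18 and 2.74 ± 0.18, a difference of -1.25 (adjusted p = 0.0187), and Odc1, which starts polyamine synthesis, by 1.90 ± 0.41 and 1.72 ± 0.41. In the list of amino acid sensing to mTORC1, 8 of 34 were called higher and 2 lower in CD4+ TEM cells. In CD8+ TEM cells 13 were called higher and 6 lower, beside the same shares over all genes. Medians were 0.27 and -0.05, against 0.02 and 0.06 over all genes. Eif4ebp1, an mTORC1 substrate, rose by 3.37 ± 0.25 and 3.26 ± 0.25, the Rag GTPase gene Rragd by 2.88 ± 0.27 and 2.09 ± 0.27, and Flcn, which acts on Rag GTPases, fell by 1.46 ± 0.17 and 1.82 ± 0.17.

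The next question was where the subsets differed. The CD4+ change minus the CD8+ change was called above 0 in 6 members (6.82%, against 8.03% of all genes) and below 0 in 2 (2.27%, against 4.49%), with a median of 0.04 over the members and -0.04 over all genes. Without either CD4+ memory array, whose group enters only the shared estimate of spread, these counts were 10 and 4. The count above 0 was 3 without CD4+ TEM replicate 1, CD8+ TEM replicate 2 or either naive CD4+ array, and the count below 0 was 1 without CD4+ TEM replicate 2, naive CD4+ replicate 1, naive CD8+ replicate 1 or either CD8+ TEM array. In the largest differences the naive CD8+ arrays stood apart. Slc2a4rg-ps read 8.32 and 8.88 in naive CD8+ cells and between 3.53 and 4.07 in the other 4 groups, so its change was -4.98 ± 0.22 in CD8+ and -0.28 ± 0.22 in CD4+ cells. Slc6a19, for the neutral amino acid carrier B0AT1 known from gut and kidney, read 3.84 and 4.0 in CD4+ TEM against 3.55 and 3.77 in naive CD4+ cells, and 6.02 and 5.36 in CD8+ TEM against 8.83 and 9.24 in naive CD8+ cells. It fell by 3.35 ± 0.26 in CD8+ cells, and its other probe set gave -2.89. The differences between the subsets were 4.70 ± 0.32 and 3.61 ± 0.37 (adjusted p = 0.000416 and 0.00137) and held without any 1 array. Slc2a4rg-ps is a transcribed pseudogene, and whether its probe set reads another gene was not tested.

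Slc16a4, an MCT family gene, was the 1 member with opposite calls. It read 6.99 and 7.49 in CD4+ TEM cells against 6.15 and 5.82 in naive CD4+ cells, and 6.02 and 4.71 in CD8+ TEM against 7.29 and 7.28 in naive CD8+ cells. The changes were 1.26 ± 0.38 and -1.92 ± 0.38 (adjusted p = 0.0422 and 0.00431), and they differed by 3.18 ± 0.54 (adjusted p = 0.00897). The fall in CD8+ cells and the difference were called in all 10 omissions, while the rise in CD4+ cells was lost in 8 of them, at 1.01 to 1.51, all except those of the CD8+ TEM arrays, and was 0.56 with the mean of its probe sets (adjusted p = 0.136). Slc7a3 differed by 1.81 ± 0.41 (adjusted p = 0.0254), with a CD8+ change of -0.56 that was not called, and Slc38a10, a SNAT family gene, by 0.94 ± 0.22 (adjusted p = 0.0326), which was 0.19 with the mean of its 7 probe sets (adjusted p = 0.611). Slc38a10 rose by 0.65 ± 0.16 in CD4+ cells, a call lost without CD4+ TEM replicate 2 (0.55) or either naive CD4+ array (0.65), and the same mean gave 0.33. Slc7a4, a relative of the cationic carriers, rose by 0.80 ± 0.16 in CD8+ cells, with a difference of -0.86 ± 0.23 (adjusted p = 0.0478), and the dim Slc6a13 rose by 0.70 ± 0.17 in CD4+ and 2.37 ± 0.17 in CD8+ cells, a difference of -1.67 ± 0.24 (adjusted p = 0.00452). Of these, the Slc7a3 difference lost its call in 5 of 10 omissions (without CD4+ TEM replicate 1, CD8+ TEM replicate 2, either naive CD4+ array or naive CD8+ replicate 1, at 1.55 to 1.93), that of Slc38a10 in 7 (without either CD4+ TEM, CD8+ TEM or naive CD4+ array or naive CD8+ replicate 1, at 0.84 to 1.03), and that of Slc7a4 in 8 (without any 1 array of these 4 groups, at -1.0 to -0.72).

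**Figure D4:**
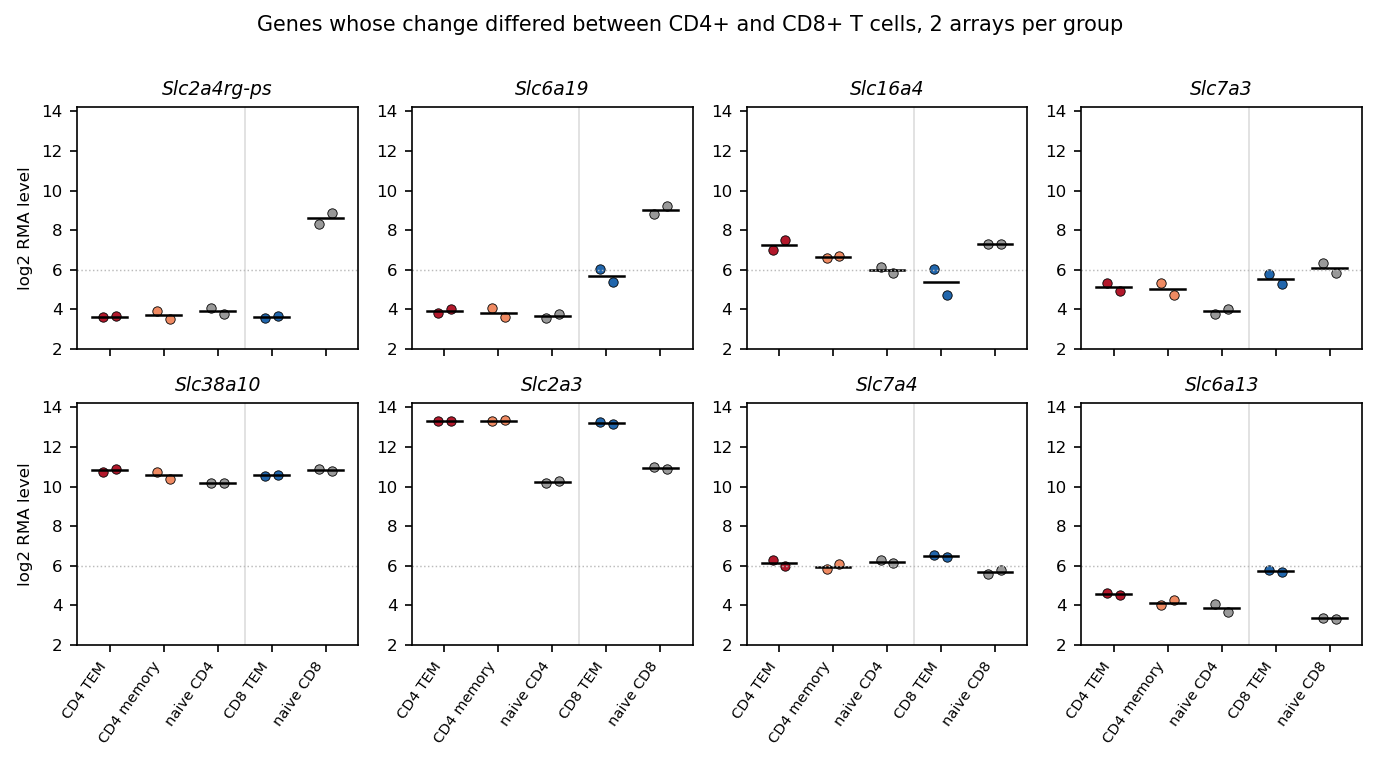
Log2 RMA level on each array (points) and group mean (bar) of the 8 members whose change differed between CD4+ and CD8+ cells, with the expression limit of 6 as a dotted line. For Slc2a4rg-ps and Slc6a19 the naive CD8+ arrays, at 8.32 to 9.24, stand above all others.

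Other members were called in CD8+ cells alone, without a called difference between the subsets. Slc1a4, for the alanine, serine and cysteine carrier ASCT1, read 7.86 and 7.85 in CD8+ TEM against 6.17 and 6.23 in naive CD8+ cells, a rise of 1.65 ± 0.37 (adjusted p = 0.00758), with a CD4+ change of 0.001 and a difference whose adjusted p was 0.0798. Slc6a6, the taurine carrier, read 10.82 and 10.65 in CD8+ TEM against 9.12 and 9.33 in naive CD8+ cells, a rise of 1.51 ± 0.26. Slc43a2, which encodes the neutral amino acid carrier LAT4, read 8.94 and 9.05 in CD8+ TEM against 10.46 and 10.91 in naive CD8+ cells, a fall of 1.69 ± 0.31, while a second expressed probe set gave -0.08. Slc38a6 fell by 2.14 ± 0.36 and Slc36a1, a lysosomal proton-coupled amino acid carrier, by 1.65 ± 0.36. In each of these falls the naive CD8+ arrays stood above the arrays of all other groups. Slc7a6os, a neighbour of Slc7a6 and no transporter, fell by 1.18 ± 0.29 (adjusted p = 0.0133), while its other probe set gave 0.21 and the mean of both -0.48, not called (adjusted p = 0.0617). Single omissions took the Slc36a1 change to -1.44 and -1.42 (adjusted p = 0.0563 without CD8+ TEM replicate 2 and 0.0516 without naive CD8+ replicate 2) and the Slc7a6os change to between -1.22 and -1.08 without either CD8+ TEM array or naive CD8+ replicate 2 (adjusted p = 0.0563 to 0.0704).

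CD4+ memory cells were set against the same naive CD4+ arrays that served CD4+ TEM cells. In CD4+ memory against naive CD4+ cells, 14 of 88 members were called higher (15.9%, against 13.5% of all genes) and 4 lower (4.55%, against 9.77%), with medians of 0.09 over the members and 0.08 over all genes. Without naive CD4+ replicate 2 the counts were 8 and 2, and with the median of the gene table made equal they were 10 (11.4%, against 8.43% of all genes) and 20 (22.7%, against 28.1%). Slc16a3 read 10.94 and 11.05 in memory cells and rose by 6.10 ± 0.13, and Slc2a3 read 13.33 and 13.34 and rose by 3.10 ± 0.12. Slc2a1 rose by 1.68 ± 0.28, Slc2a8 by 2.08 ± 0.21, Slc16a1 by 0.88 ± 0.12, Slc43a3 by 2.73 ± 0.23 and Slc6a9 by 2.0 ± 0.18. The Slc16a1 rise was under 2-fold and was 0.24 with the mean of both probe sets (adjusted p = 0.737), and Slc16a13, at 0.63 ± 0.55, was not called. Slc2a6 rose by 1.19 ± 0.26 and Slc2a9 by 1.33 ± 0.21, with a second Slc2a9 probe set at -1.48. Slc16a5 fell by 4.79 ± 0.33 to 4.31 and 4.68. Slc7a5 rose by 0.69 ± 0.17, and was not called without naive CD4+ replicate 2 (0.47) or either memory array (0.69).

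Some members were called in the memory comparison and not in CD4+ TEM against naive CD4+ cells, which by itself shows no difference between them. Slc38a9, for the lysosomal arginine sensor, read 8.20 and 7.67 in memory cells against 6.92 and 6.96 in naive CD4+ cells, a rise of 1.0 ± 0.22, but its other 6 probe sets ranged from -1.40 to 0.99 and the mean of all gave 0.06. Its call was lost without memory replicate 1 (0.73) or either naive CD4+ array (0.98 and 1.02). Slc7a6os fell by 0.99 ± 0.29, a call that 9 of 10 omissions removed, all but that of memory replicate 2, with -0.51 without memory replicate 1 and -1.11 to -0.87 in the others. By contrast, Slc2a6, Slc16a10 and Slc7a3 were called in both comparisons. Slc2a6 lost its memory call without memory replicate 1 (0.88) or naive CD4+ replicate 2 (0.93). Slc16a10, which fell by 1.28 ± 0.31, lost it without memory replicate 2 (-1.15) or naive CD4+ replicate 2 (-0.79). Slc7a3 rose by 1.14 ± 0.29, not called without memory replicate 1 (0.83) or either naive CD4+ array (1.02 and 1.25). In the list of partners and regulators 7 of 16 were called higher and 2 lower in memory cells, against 13.5% and 9.77% of all genes. Arrdc4 was at 5.83 ± 0.34 and Bsg at 2.58 ± 0.18.

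CD4+ TEM and CD4+ memory cells were then compared with each other. Of 88 members 2 were called higher in TEM cells (2.27%, against 3.89% of all genes) and 0 lower (0.0%, against 1.64%), with 1 higher without CD4+ TEM replicate 1 and 4 higher and 2 lower without memory replicate 2. At an unadjusted p under 0.05 in limma, 11 were higher (12.5%, against 11.3% of all genes) and 2 lower (2.27%, against 9.06%). With the gene-table scaling 2 were called higher (2.27%, against 3.12%) and 2 lower (2.27%, against 4.74%). Slc7a6 read 9.70 and 9.55 in TEM cells against 8.22 and 8.08 in memory cells, a log2 fold change of 1.48 ± 0.19 (adjusted p = 0.00396). Naive CD4+ cells stood at 9.63 and 9.10, so the memory arrays were the low ones, with a change of -1.22 ± 0.19 against naive cells (adjusted p = 0.00249), and both calls held without any 1 array. Slc6a9 read 7.5 and 7.40 in TEM cells against 6.29 and 6.54 in memory cells, a change of 1.04 ± 0.18 (adjusted p = 0.0151). This call was lost without either TEM array (0.98 and 1.09) or memory replicate 1 (0.91), and with the mean of both probe sets (0.38). The glucose carriers Slc2a1 and Slc2a3 differed by -0.23 ± 0.28 and -0.01 ± 0.12 and Slc16a3 by 0.25 ± 0.13, none of them called. The nearest members without a call were Slc6a6 at 1.08 ± 0.26 (adjusted p = 0.0566) and Slc2a6 at 0.98 ± 0.26 (adjusted p = 0.0725). Of the enzyme genes, Bcat1 stood 2.62 ± 0.23 and Pdk3 1.46 ± 0.17 higher in TEM cells, while the arginine sensor gene Castor1 fell by 1.56 ± 0.23 relative to memory cells.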

How the data were processed

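Expression was measured on Affymetrix 3' expression arrays of the mouse genome. The deposited values are on the log2 scale and were made by the authors with RMA normalization in BRB-ArrayTools (version not given in the sources used here). They run from 1.68 to 14.86, with array medians of 4.651 to 4.749. Of 45101 probe sets, 34945 have 1 gene symbol, and 64 controls and 932 with several symbols were left out. Symbols were updated for 34741 of them through names of assembly GRCm38.p6. Groups came from titles and source names. Entries on germinal center B cells, Foxo1 and an edited lymphoma line were not used.

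All 10 arrays entered 1 limma 3.58.1 fit (R 4.3.3) with a mean per group, which left 5 residual degrees of freedom, over 18193 genes. Variances were moderated by empirical Bayes, p-values were adjusted by Benjamini-Hochberg within each comparison across the whole gene table, and genes were called below 0.05. The code was tested on simulated data. With 2 arrays per group, precision is limited by their number.

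Members and gene lists were chosen with earlier results of these data known. Named were every expressed member of a T cell core list and 2 members on each side of the expression limit. Also named was every expressed member called with a log2 change of at least 1 and arrays that do not overlap (up to 8 in each direction per comparison). For the other lists the plan was up to 4 called genes with the largest change per comparison. It was not followed throughout: Gpt2 was left out, and genes with smaller changes, such as Txnip and Myc, were named. Members called in 1 subset with smaller changes, or those of the subset difference, were added after their values were seen. Alternatives were other scalings, probe set choices, filters, variance models, a replicate block and omission of each array.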

Additional observations from a re-analysis of the deposited data

Results flagged for a closer look

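For 8 members the change between TEM and naive cells differed between CD4+ and CD8+ cells by the test of the difference itself, the CD4+ change minus the CD8+ change on the log2 scale. The difference was 4.70 for the pseudogene Slc2a4rg-ps, 3.61 for the neutral amino acid carrier gene Slc6a19 and 3.18 for Slc16a4. It was 1.81 for Slc7a3, 0.94 for Slc38a10 and 0.82 for Slc2a3. Negative differences, with the larger rise in CD8+ cells, were -1.67 for Slc6a13 and -0.86 for Slc7a4. The share of members with such a difference, 6.82% above and 2.27% below 0, did not exceed that of all genes, 8.03% and 4.49%.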

How the results depend on the processing

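Of 57 called results for named members, 34 kept direction and call under all alternatives, and of their 1083 alternative values 987 kept both, 94 lost the call and 2 changed sign. The sign changes came with the mean of all probe sets, at -0.076 for Slc16a1 in CD4+ TEM against naive CD4+ cells (adjusted p = 0.929) and -0.075 for Slc2a9 in CD4+ memory against naive CD4+ cells (adjusted p = 0.8). With the median of the gene table made equal on all arrays, members called higher and lower were 9 and 40 in CD4+ TEM against naive, 11 and 42 in CD8+ TEM against naive, 20 lower in memory against naive, and 2 lower in TEM against memory cells. That scaling moved the median of all genes to -0.33 in memory against naive and -0.22 in TEM against memory cells, and all-gene calls in CD4+ TEM against naive cells became 1843 higher and 9870 lower. A common median of all probe sets was added after seeing the data and left these all-gene calls at 2882 and 1904. Quantile normalization gave 6 members lower in CD4+ TEM against naive cells and 4 lower in the subset difference. A fit of only the compared arrays gave 10 higher and 4 lower in the subset difference, 9 higher and 2 lower in memory against naive, and 1 higher in TEM against memory cells. The mean of all probe sets, only genes with a mean of 6 or more, and the replicate block each left 1 lower in the subset difference, and the block moved no other count by over 1.5 times. Same-numbered deviations correlated at -0.04 to 0.03 over 10 pairs, so no common shift by replicate number was seen. This cannot tell whether same-numbered arrays share a mouse or culture. The causes were not tested.

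Omitting 1 array at a time, members called higher and lower ranged from 11 to 18 and 1 to 3 in CD4+ TEM against naive, 13 to 17 and 6 to 11 in CD8+ TEM against naive, 3 to 10 and 1 to 4 in the subset difference, 8 to 14 and 2 to 6 in memory against naive, and 1 to 4 and 0 to 2 in TEM against memory cells. A limit of 5 or 7 in place of 6 gave 41 or 32 expressed members, against 36.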
